A study of Homo sapiens with 8 samples.

Results

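LNCaP cells that had received extracellular vesicles from EnzaR cells were compared with LNCaP cells that had received none, and genes were taken when all 3 vesicle libraries lay on the same side of the single control library. Of 10772 genes above a floor on their level, 3589 (33.3%) were higher than control in all 3 vesicle libraries, 3925 (36.4%) were lower in all 3, and 3258 were mixed. LNCaP is an androgen-sensitive human prostate cancer line that the labels call enzalutamide-sensitive. EnzaR is a prostate cancer line labelled resistant to enzalutamide, an antiandrogen drug, and only EnzaR cells were kept in 10 uM of the drug. The 4 LNCaP libraries were a vehicle control without vesicles (control) and cells exposed for 48 h to vesicles from EnzaR donors that had received control siRNA (EV-siNC), were depleted of YAP1 (EV-siYAP1) or were depleted of COUP-TFII (EV-siCII). YAP1 and control siRNA were used at 40 nM for 48 h in the EnzaR libraries. The labels do not state the siRNA dose for COUP-TFII, the amount of vesicles, the vehicle or the number of cultures behind a library. The 4 LNCaP libraries were taken from 8 in the series, and the 4 EnzaR libraries served only to show levels in the donor line.

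The comparison asked which transcripts of recipient cells lay on the same side of control whichever vesicles had been given. It has 1 control library and 1 library of each vesicle kind, so no test was made and no p-value is given. The 3 vesicle libraries received different preparations and are not replicates, and their ratios share the control library, so that an unusual value in the control alone places all 3 on the same side. Values are CPM, read counts scaled to library size with trimmed-mean (TMM) factors, and ratios are log2 of a vesicle library over control. Genes with a mean of at least 5 CPM over the 4 LNCaP libraries were used, 10772 in all. That mean holds 3 vesicle libraries and 1 control library. A gene higher with vesicles therefore passes from a lower control value than a gene lower with vesicles. At that floor a library held about 85.5 to 91 counts of a gene. Total counts lay between 17543894 and 17964615 in the 4 libraries.

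At 1.5-fold or more in each vesicle library, 98 genes were higher (0.91%) and 8 were lower (0.0743%). The floor admits higher genes more readily, so these 2 numbers are not on equal terms. At 2-fold in each, 3 were higher (0.0278%) and 5 were lower (0.0464%). The genes at 2-fold included 3 metallothioneins, all lower, and a zinc transporter, higher. These genes are described first.

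The control library also held transcripts that the others lacked. Over all genes in the table, 7 had at least 10 counts in control and 0 in each vesicle library, beside 0, 0 and 1 such genes for EV-siNC, EV-siYAP1 and EV-siCII against the other libraries. No gene with at least 10 counts in every vesicle library had 0 in control. The genes seen in control alone included the cytokine and chemokine genes CSF3 (63 counts in control), CXCL1 (51), IL6 (28), CXCL3 (23) and CXCL8 (19), and the protease inhibitor gene TFPI2 (16), each at 0 in the 3 vesicle libraries and at 0 or 1 in the 4 EnzaR libraries. TIMP1, a metalloprotease inhibitor gene, had 52 counts in control and 0, 4 and 2 with vesicles. PTX3 (pentraxin 3) had 41 counts in control and 1, 1 and 0, and the adhesion gene ICAM1 had 48 in control and 7, 5 and 6. The stromal collagen gene COL1A2 had 9 counts in control and 0 in each vesicle library, and DCN (decorin) had 3 and 0. A count of 0 allows up to 3 counts. These genes lie under the floor and were chosen after their values were seen, and their part in the differences described next, all of which rest on this control library, was not tested.

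Metallothioneins are small cysteine-rich proteins that bind zinc and copper. Their genes are induced by zinc through the transcription factor MTF1, which binds metal response elements in their promoters, so that their mRNA levels are widely used as a readout of free zinc. Zinc enters the cytosol through transporters of the SLC39 (ZIP) family and leaves it through the SLC30 (ZnT) family. Normal prostate epithelium is known for the amount of zinc it accumulates, and for losing it in cancer.

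The 250 bases before the RefSeq start of MT2A and MT1X are shown because both genes were lower in every vesicle library and because such promoters carry the metal response elements that MTF1 binds. They are on the plus strand of GRCh38.p14, at chr16:56608334-56608583 for MT2A and chr16:56682220-56682469 for MT1X. Capitals mark each match to the core letters TGCACNC or TGCGCNC on either strand.
MT2A: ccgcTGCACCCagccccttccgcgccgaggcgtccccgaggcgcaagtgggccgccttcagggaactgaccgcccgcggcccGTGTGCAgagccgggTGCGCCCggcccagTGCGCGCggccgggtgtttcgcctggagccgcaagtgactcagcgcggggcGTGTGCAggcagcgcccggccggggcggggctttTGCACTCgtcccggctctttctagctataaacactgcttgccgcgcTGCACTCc
MT1X: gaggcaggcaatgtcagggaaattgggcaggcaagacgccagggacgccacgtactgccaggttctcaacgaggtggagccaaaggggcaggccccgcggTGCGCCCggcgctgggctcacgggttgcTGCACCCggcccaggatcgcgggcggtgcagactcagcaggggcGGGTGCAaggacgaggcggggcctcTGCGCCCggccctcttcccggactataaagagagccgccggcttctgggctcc
There were 7 such cores in the MT2A window and 4 in the MT1X window. Among 27305 RefSeq promoter windows of the same length, 24.7% held at least 1 core and 1.56% held at least 3. Among the 8398 windows of genes above the floor these shares were 34.4% and 2.52%. The window of the zinc exporter gene SLC30A1 held 1 core, that of the importer gene SLC39A6 held 1, and those of SLC39A10 and MTF1 held 0. A match is a run of letters and not a shown binding site, and the absence of these letters from a window says nothing about the factor.

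MT2A, the most widely expressed metallothionein gene, was at 79.2 CPM in control and at 17.2, 12.99 and 36.5 CPM in EV-siNC, EV-siYAP1 and EV-siCII. All 3 lay far below control, EV-siCII the least, with log2 ratios of -2.20, -2.60 and -1.12. Pooled, the vesicle counts gave a log2 ratio of -1.84, with exact 95% limits of -1.95 to -1.73 that cover counting error only, as do all such limits here. MT1X was at 18.4 CPM in control and at 5.06, 4.11 and 6.06 CPM in the vesicle libraries in the same order. Its 3 vesicle values lay close together, and the pooled log2 ratio was -1.86 (limits -2.10 to -1.62). MT1G was at 20.1 CPM in control and at 4.29, 2.64 and 9.52 CPM with vesicles, a pooled log2 ratio of -1.88 (limits -2.11 to -1.65). MT1F was at 16.3 CPM in control and at 5.39, 7.48 and 8.89 CPM with vesicles, and its pooled ratio of -1.17 (limits -1.40 to -0.95) was the smallest of these 4. In each of the 4 genes EV-siCII lay nearest to control.

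The other metallothionein genes on the list gave little signal. MT3, which encodes the form first described in brain, lay under the floor with 36 counts in control and 8, 12 and 15 counts in the vesicle libraries, also lower in all 3. MT1A, MT1E, MT1H and MT1M had 0 counts in all 4 libraries, which allows up to 3 counts in each. The members are near-identical copies clustered on chromosome 16, so the authors' counting could have lost or misplaced reads of them. The value of any single member is therefore uncertain. Of the 5 genes of the list above the floor, which includes MTF1, 4 were lower in all 3 libraries at 1.5-fold and 0 were higher. Over all genes 0.0743% were lower at that size, 8 genes that include these 4. The list was chosen with earlier results of these data known, so the contrast is a description only. MTF1 itself was at 19.2 CPM in control and at 24.5, 19.1 and 20.7 CPM with vesicles, on both sides of control. In the donor line MT2A, MT1G, MT1X and MT1F averaged 171.7, 150.0, 42.3 and 11.7 CPM over the 4 EnzaR libraries, so the recipient values with vesicles were lower than those of the donor cells for all 4 genes.

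SLC39A10 (ZIP10), a plasma membrane zinc importer, had the largest difference of any gene higher in all 3 libraries. It was at 8.25 CPM in control and at 32.4, 31.8 and 18.1 CPM in EV-siNC, EV-siYAP1 and EV-siCII. The log2 ratios were 1.96, 1.93 and 1.12, and the pooled ratio was 1.74 (limits 1.49 to 2.00). Here too EV-siCII lay nearest to control. The EnzaR libraries averaged 11.1 CPM, below each vesicle library. SLC39A6 (ZIP6), which encodes the importer that pairs with ZIP10, was at 48.6 CPM in control and at 72.6, 70.7 and 66.9 CPM with vesicles, a log2 difference of 0.53 on average. The importer gene SLC39A8 (ZIP8) was at 13.5 CPM in control and at 16.4, 19.0 and 15.2 CPM with vesicles, a mean log2 ratio of 0.31. SLC39A8 and SLC30A1 fall outside the rule for named genes and were chosen after their values were seen.

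The remaining zinc transporters did not lie on a common side. Of 17 transporter genes above the floor, 7 were higher in all 3 libraries, 6 were lower and 4 were mixed, and the median of the mean log2 ratio was 0.023, beside -0.015 over all genes. After the GC and length correction described further on, 5 were higher and 7 were lower, and the median was -0.033. SLC30A1 (ZnT1), the plasma membrane exporter whose gene is also a target of MTF1, was at 7.25 CPM in control and at 6.37, 6.98 and 6.17 CPM with vesicles. Its 3 values were all slightly lower, and the limits of its pooled log2 ratio, -0.46 to 0.15, included 0. The plot of metal-related genes shows the 4 values of each gene.

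**Figure D1:**
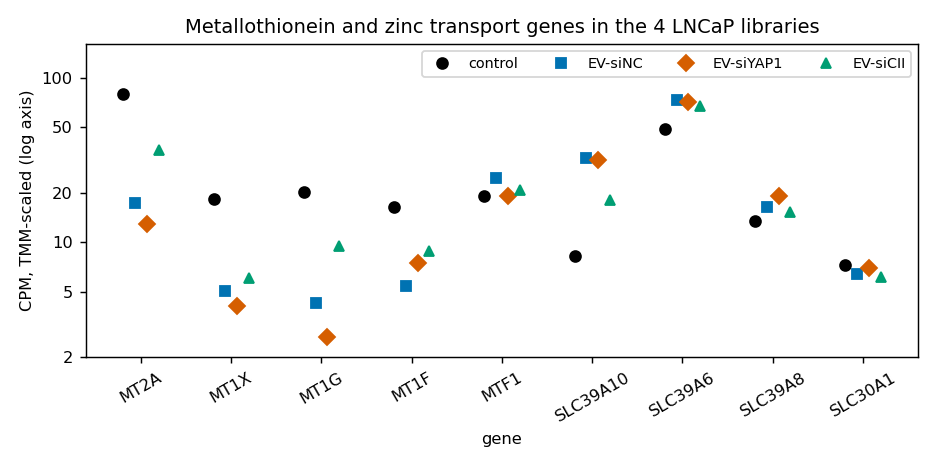
CPM (TMM-scaled, log axis) of metallothionein genes, MTF1 and 4 zinc transporter genes in the control, EV-siNC, EV-siYAP1 and EV-siCII libraries, with 1 point per library and therefore no error bar. The control point is the highest for the 4 metallothionein genes (79.2 against at most 36.5 CPM for MT2A) and the lowest for SLC39A10 (8.25 against at least 18.1 CPM).

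The next genes among those higher in all 3 libraries were mostly of low level. CEP295, NPAT, RBIS, METTL14, RIF1, LMBRD2 and TTF1 lay under 5 CPM in control and passed the floor only through their vesicle values. CEP295, which encodes a centriole assembly protein, was at 3.16 CPM in control and at 8.08, 7.71 and 6.91 CPM with vesicles (pooled log2 ratio 1.26, limits 0.85 to 1.70). NPAT, which encodes a co-activator of replication-dependent histone genes, was at 2.63 CPM in control and at 5.83, 8.21 and 5.61 CPM with vesicles (pooled log2 ratio 1.31, limits 0.86 to 1.80). Both control values rest on few reads, 54 for CEP295 and 45 for NPAT. RBIS, a ribosome biogenesis factor gene, was at 2.75 CPM in control and at 6.59, 7.48 and 5.21 CPM with vesicles. METTL14, which encodes a subunit of the RNA N6-adenosine methyltransferase, was at 2.98 CPM in control and at 6.92, 5.51 and 5.55 CPM with vesicles.

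Among the leading genes, TAOK3, RFX3 and ZNF407 had more reads in control, 199, 136 and 103. TAOK3, which encodes a kinase upstream of the Hippo kinases, was at 11.6 CPM in control and at 22.6, 25.7 and 20.1 CPM with vesicles (pooled log2 ratio 0.97, limits 0.75 to 1.19). RFX3, a transcription factor gene of the ciliary programme, was at 7.96 CPM in control and at 14.4, 14.8 and 13.9 CPM with vesicles, so that its vesicle values nearly coincided. ZNF407, a zinc finger gene, was at 6.03 CPM in control and at 12.47, 12.04 and 10.65 CPM with vesicles. RIF1 (a DNA repair and replication timing factor), LMBRD2 and TTF1 (a termination factor of RNA polymerase I) had mean log2 ratios of 0.86, 1.13 and 0.91.

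The genes lower in all 3 libraries were few after the metallothioneins. ZWINT, which encodes a kinetochore protein, was at 13.8 CPM in control and at 7.25, 3.77 and 8.95 CPM with vesicles (pooled log2 ratio -1.05, limits -1.29 to -0.80), and EV-siYAP1 stood well below the other vesicle libraries. PPIH, a cyclophilin gene of the spliceosome, was at 13.1 CPM in control and at 9.18, 8.44 and 7.93 CPM with vesicles. GPT, the cytosolic alanine aminotransferase gene, was at 12.3 CPM in control and at 8.46, 7.65 and 8.16 CPM with vesicles. POP7, which encodes a subunit of RNase P, was at 73.9 CPM in control and at 53.3, 52.3 and 53.6 CPM with vesicles. The 3 vesicle values of POP7 lay close together and clear of control, although the mean log2 ratio was only -0.48. PRADC1, the long noncoding RNAs GOLPH3-DT and CENATAC-DT, and the formin gene FMNL3 had mean log2 ratios of -0.61, -0.72, -0.53 and -0.54. Of the 8 genes 1.5-fold lower, 5 were the metallothioneins and ZWINT. The other 3 were identifiers to which no symbol was matched here, and they are named after their values were seen. A missing match does not make them unknown genes. ENSG00000184779 was at 19.0 CPM in control and at 8.352, 7.2 and 6.57 CPM with vesicles. ENSG00000272060, on an unplaced scaffold, was at 10.2 CPM in control and at 3.52, 3.54 and 4.98 CPM. ENSG00000034063 was at 12.2 CPM in control and at 7.03, 4.89 and 7.82 CPM with vesicles.

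Of the 23 leading genes described, 6 overlap another expressed gene on the opposite strand in the deposited coordinates. These are CEP295, NPAT (which shares 159 bases with ATM), RBIS, ZNF407, TAOK3 and FMNL3. Whether counting used strand is not stated, and reads of the overlapping parts cannot be told apart.

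**Figure D2:**
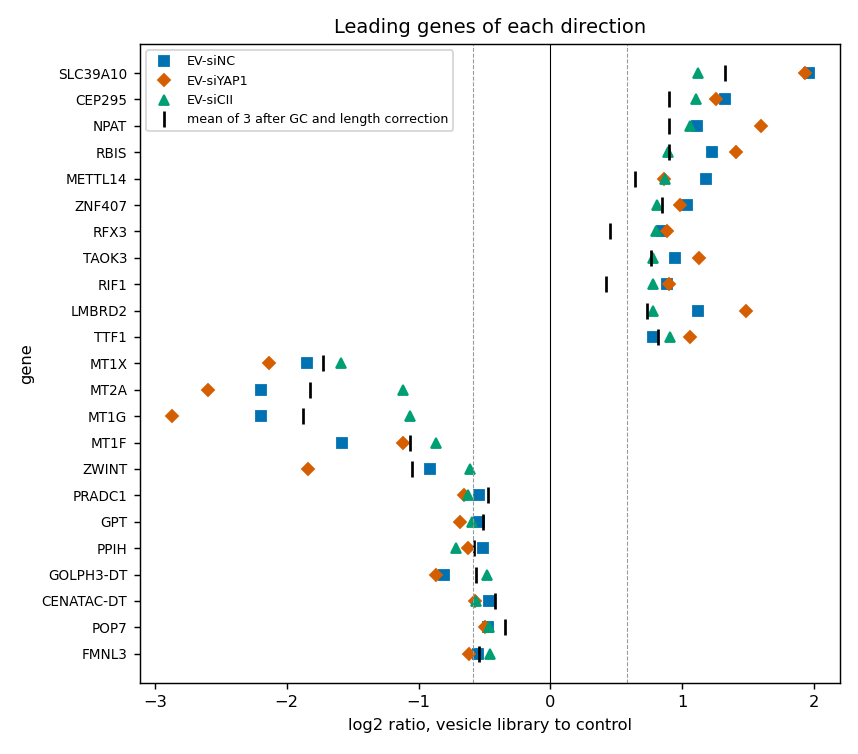
Log2 ratio to control of 23 leading genes in EV-siNC, EV-siYAP1 and EV-siCII (1 library each), with the mean of the 3 after the GC and length correction described in the text as a black tick and 1.5-fold as dashed lines. MT1X, MT2A, MT1G and SLC39A10 reach beyond the other leading genes of their direction in each library, and EV-siCII is the vesicle library nearest to control in each of these.

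The 98 genes that were 1.5-fold higher shared features that the choice did not use. Their median GC content was 38.5% (range 31.8% to 47.8%), beside 50.2% over all genes, and their median exonic length was 6945 bases, beside 4818. Of the 98, 96 were protein-coding, and 84 (85.7%) lay in the lowest 2 deciles of GC content. The 8 genes that were 1.5-fold lower had a median length of 1879 bases, and the 5 of them with a GC value had a median GC content of 53.9%. The values that chose the genes are given only as a description: the 98 had control values of 2.63 to 34.6 CPM with a median of 6.05 CPM, EV-siCII was the nearest to control for 57 of the 98 and 7 of the 8, and EV-siYAP1 was the farthest for 60 of the 98 and 5 of the 8. Just inside the 1.5-fold limit lay APC, the Wnt pathway scaffold gene, at 4.15 CPM in control and 8.79, 9.45 and 6.29 CPM with vesicles. ELL2, an androgen-responsive elongation factor gene, lay just outside it at 6.08 CPM in control and 9.18, 10.5 and 10.8 CPM with vesicles.

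GC content moved with the comparison across the whole table, not only in the genes at the limit. In the lowest decile of GC content (30.2% to 39.2%) the median log2 ratios were 0.34, 0.41 and 0.27 in EV-siNC, EV-siYAP1 and EV-siCII, and 79.7% of the genes were higher in all 3. In the highest decile the medians were -0.12, -0.10 and -0.08, and 8.66% of the genes were higher in all 3 while 56.3% were lower. Across genes, Spearman's rho of the ratio with GC content was -0.56, -0.49 and -0.48 in the 3 libraries, and 0.013 and -0.16 between the replicates of EnzaR siNC and EnzaR siYAP1. These are descriptions over genes, which are not independent and share the control library. With exonic length, rho was 0.32, 0.27 and 0.34, and between EnzaR replicates it was -0.13 and 0.43, so a length trend of that size was also present between replicates. Whether the GC trend comes from the cells or from library preparation was not tested.

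**Figure D3:**
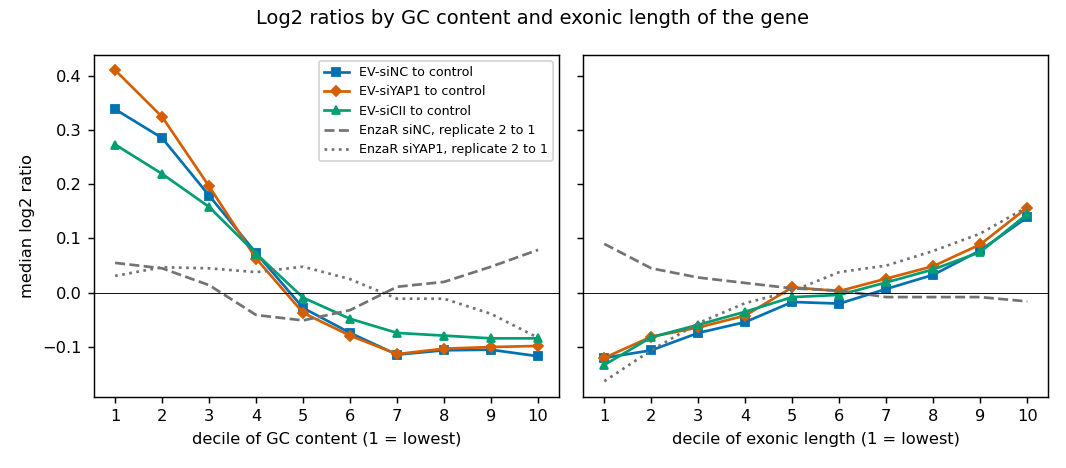
Median log2 ratio of genes in deciles of GC content (left) and of exonic length (right), for each vesicle library against control (solid lines) and for replicate 2 against replicate 1 of each EnzaR group (broken lines). The vesicle libraries run from between 0.27 and 0.41 in the lowest decile of GC content to between -0.12 and -0.08 in the highest, while the EnzaR replicate pairs stay within 0.09 of 0 in the left panel.

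Because of that trend, the leading genes and the gene lists are also given after subtracting a smooth surface of GC content and length from the ratios of each vesicle library, with the library median kept. After this correction 2899 genes (27.3%) were higher in all 3 libraries and 3442 (32.4%) were lower, of 10618 genes with a GC value. At 1.5-fold, 14 were higher (0.132%) and 15 were lower (0.141%), so that the excess of higher genes at that limit was no longer present. All 98 higher genes stayed on the same side, with a median of 0.47 in place of 0.77, and 12 of them remained past 1.5-fold. They had been chosen for ratios past 1.5-fold in every library, so staying above control is no separate result. Of the lower genes, MT2A, MT1X, MT1G and MT1F remained past 1.5-fold, at corrected mean log2 ratios of -1.83, -1.73, -1.88 and -1.07. ZWINT stayed lower at -1.05 on average but not by 1.5-fold in EV-siCII, and the 3 identifiers without a symbol have no GC value. SLC39A10 was at 1.33 after correction, the largest of any gene higher in all 3. CEP295, NPAT and RBIS were each at 0.90, ZNF407 at 0.85, TTF1 at 0.82 and TAOK3 at 0.76. LMBRD2, METTL14, RFX3 and RIF1 went to 0.73, 0.64, 0.45 and 0.43, and SLC39A6, SLC39A8 and SLC30A1 to 0.34, 0.18 and -0.48. Of the lower genes under 1.5-fold, PPIH, GPT and POP7 went to -0.58, -0.51 and -0.34. APC and ELL2 went to 0.57 and 0.41. The corrected surface would also remove a difference in the cells that happened to follow GC content.

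**Figure D4:**
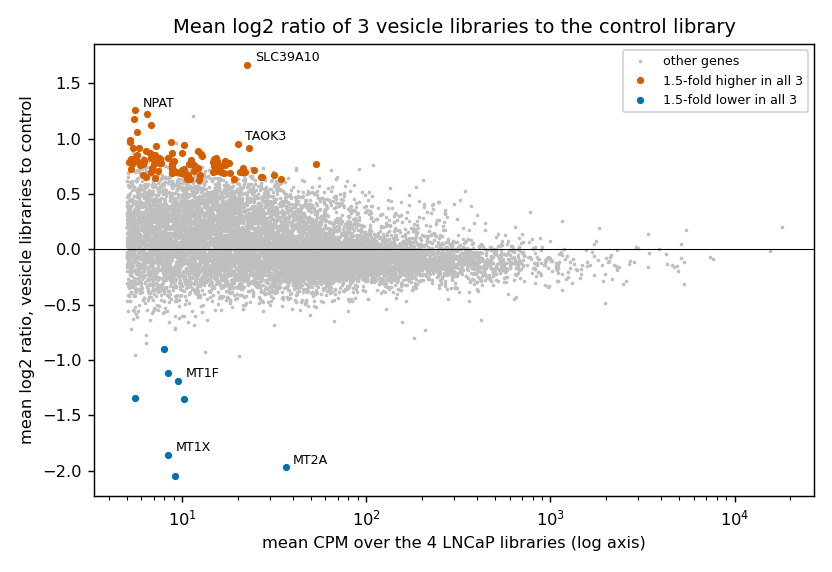
Mean log2 ratio of the 3 vesicle libraries to control against the mean CPM of the 4 LNCaP libraries (log axis), 1 point per gene, for the 10772 genes above the floor. The 98 genes 1.5-fold higher in all 3 libraries sit mostly at low CPM and the 8 genes 1.5-fold lower include MT2A, MT1X and MT1F.

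The size of the differences can be set beside those within groups. At 1.5-fold in a single library, EV-siNC had 383 genes higher and 47 lower than control, EV-siYAP1 677 and 194, and EV-siCII 211 and 51. Between the replicates of the EnzaR groups, over 10499 genes, these numbers were 101 and 29 in siNC and 116 and 25 in siYAP1. The SD of log2 ratios over genes was 0.27, 0.33 and 0.24 for the 3 vesicle libraries against control and 0.21 and 0.22 between EnzaR replicates. Between pairs of vesicle libraries it was 0.19 to 0.20. The control library therefore stood further from each vesicle library than they stood from one another. The labels do not say whether it was grown, harvested or sequenced alongside them, so a batch and the vesicles cannot be told apart. Leaving out EV-siNC or EV-siCII, 160 or 258 genes were 1.5-fold higher in the remaining libraries and 28 or 25 were lower.

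Gene lists are described by counts of members on one side of control, read against the 33.3% higher and 36.4% lower of all genes, and no list was tested. Genes for nuclear-encoded subunits of oxidative phosphorylation, which make the respiratory chain and ATP synthase, lay mostly below control. Of 38, 34 were lower in all 3 libraries and 3 were higher, with a median log2 ratio of -0.19. NDUFB2, a complex I subunit gene, was at 147.2 CPM in control and at 113.1, 105.8 and 116.3 CPM with vesicles. NDUFA1, another complex I subunit gene, was at 86.1 CPM in control and at 66.2, 63.6 and 67.9 CPM with vesicles. NDUFS1, SDHB and UQCRC2 were the 3 higher members, and NDUFS1, the largest complex I subunit, was at 38.3 CPM in control and at 49.7, 50.9 and 49.4 CPM with vesicles. The corrected means of NDUFB2, NDUFA1 and NDUFS1 were -0.49, -0.22 and 0.086. After the correction 27 of 38 were lower, beside 32.4% of all genes, and the median was -0.09. Mitochondrially encoded mRNAs did not follow: of 13, 4 were lower, 1 was higher and 8 were mixed, and after correction 1 was lower and 3 were higher. The share of all counts from mitochondrial transcripts was 4.76% in control and 5.11% to 5.37% with vesicles.

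Cytosolic ribosomal protein genes, whose products form the ribosome, had 27 of 35 members lower in all 3 libraries and 4 higher, at a small median of -0.12. After correction 17 of 35 were lower and 6 were higher, and the median was -0.04. Their values are uncertain because pseudogene copies of nearly the same sequence could take part of the reads. All 6 replication-dependent histone genes above the floor were lower in all 3 libraries, with a median of -0.28. H2BC21 was at 118.8 CPM in control and at 94.4, 86.1 and 93.5 CPM with vesicles. After correction 4 of the 6 were lower in all 3, the median was -0.26, and H2BC21 was at -0.33.

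Genes of DNA replication were lower in part, while mitotic genes were lower in about the share seen over all genes. Of 36 replication genes listed, 35 were matched by symbol and 28 were above the floor. The unmatched entry was UHRF1, so the counts leave it out whatever its value. Of the 28, 15 were lower in all 3 libraries and 5 were higher, with a median of -0.21 that was also -0.21 after correction. The per-library medians were -0.17, -0.24 and -0.03, so EV-siCII lay near control. Of 13 mitotic genes above the floor, out of 30 listed, 5 were lower in all 3 and 3 were higher, beside 36.4% and 33.3% of all genes. The per-library medians were -0.27, -0.40 and 0.07. CDC20, the activator of the anaphase-promoting complex, was at 16.2 CPM in control and at 10.1, 8.27 and 12.1 CPM with vesicles, and its corrected mean log2 ratio was -0.57. After correction 6 of the 13 were lower and 1 was higher, beside 32.4% and 27.3% of all genes. The floor leaves out most mitotic genes, so the 13 are not the whole list.

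Genes of hypoxia and glycolysis, many of them targets of hypoxia-inducible factors, had 21 of 33 members lower in all 3 libraries and 1 higher. The median was -0.30, and the per-library medians were -0.09, -0.41 and -0.39, so EV-siNC lay nearest to control. ANKRD37, a hypoxia-induced gene, was at 15.7 CPM in control and at 11.5, 11.3 and 8.27 CPM with vesicles. KDM3A, a histone demethylase gene, was the 1 higher member, at 18.6 CPM in control and 24.0, 21.5 and 21.2 CPM with vesicles. After correction 21 of 33 were lower and 0 were higher, with a median of -0.23, and ANKRD37 was at -0.74 while KDM3A was at -0.04.

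Cholesterol synthesis and uptake genes had 15 of 24 members lower in all 3 libraries and 5 higher, with a median of -0.16. After correction 14 were lower and 3 were higher, and the median was -0.12. Fatty acid synthesis genes had 9 of 17 lower and 6 higher, and ACSL3, an acyl-CoA ligase gene, was at 22.9 CPM in control and 29.01, 30.15 and 30.3 CPM with vesicles. After correction 7 were lower and 3 were higher, and ACSL3, at -0.018, -0.002 and 0.13 in the 3 libraries, no longer lay on one side of control. NRF2 and antioxidant genes had 13 of 21 lower and 6 higher, which became 7 lower and 5 higher after correction.

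The p53 target genes had 8 of 24 members higher in all 3 libraries and 2 lower, with 14 mixed. The median was 0.12, and 0.15, 0.31 and -0.03 in EV-siNC, EV-siYAP1 and EV-siCII, so the list did not lie on a common side. CCNG1 (cyclin G1) was at 60.8 CPM in control and at 98.8, 118.0 and 87.6 CPM with vesicles. RRM2B, the p53-inducible ribonucleotide reductase subunit, was at 20.8 CPM in control and at 30.9, 47.0 and 26.4 CPM with vesicles. ZMAT3, an RNA-binding p53 target, was at 17.1 CPM in control and at 23.4, 28.6 and 22.5 CPM with vesicles. These 3 genes have a GC content of 36.4% to 39.5%, and their corrected means were 0.47, 0.36 and 0.18. Over the list the corrected median was 0.19, with 12 members higher and 2 lower, beside 27.3% and 32.4% of all genes.

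Hippo pathway components, which control the co-activator YAP1, had 15 of 25 members higher in all 3 libraries and 5 lower, with a median of 0.11. LATS1, the kinase that phosphorylates YAP1, was at 16.6 CPM in control and at 24.4, 26.1 and 23.7 CPM with vesicles. MOB1B, a LATS co-activator gene, was at 14.5 CPM in control and at 24.2, 26.5 and 21.6 CPM with vesicles. TEAD1, the gene of the DNA-binding partner of YAP1, had log2 ratios of 0.50, 0.64 and 0.43. After correction 9 of 25 were higher and 5 were lower, and the median was 0.03, with LATS1, MOB1B and TEAD1 at 0.24, 0.32 and 0.21. YAP1 itself was at 61.1 CPM in control and at 69.3, 64.3 and 68.8 CPM with vesicles, a mean log2 ratio of 0.14 that became -0.04 after correction. YAP/TAZ target genes had 6 of 13 members higher and 2 lower, with a median of 0.056, and 6 and 1 after correction with a median of 0.067. Under upper-quartile scaling the median was -0.046, where that of all genes was -0.117.

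Genes of transcriptional co-regulators and chromatin had 22 of 31 members higher in all 3 libraries and 2 lower, with a median of 0.25. The mediator subunit gene MED13 was at 19.8 CPM in control and at 28.6, 29.6 and 29.7 CPM with vesicles. SUZ12, of Polycomb repressive complex 2, was at 12.99 CPM in control and at 18.5, 19.7 and 18.4 CPM with vesicles. ATRX and KDM6A had mean log2 ratios of 0.52 and 0.44. The list has a median GC content of 45.0%, and after correction its median was 0.041, with 15 members higher and 4 lower. MED13, SUZ12, ATRX and KDM6A went to 0.18, 0.20, 0.12 and 0.25. DNA repair genes had 12 of 18 members higher and 2 lower, with a median of 0.19 that became 0.005 after correction, with 6 higher and 3 lower. ATM, the kinase of the response to double-strand breaks, was at 9.48 CPM in control and at 17.5, 17.0 and 15.0 CPM with vesicles. ATR, the kinase of replication stress, was at 5.67 CPM in control and at 10.9, 10.6 and 8.33 CPM with vesicles. Their corrected means were 0.36 and 0.43, and RAD50 was at 0.20.

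Androgen-responsive genes showed no common side. Of 26, 11 were higher in all 3 libraries and 10 were lower, with a median of 0.063, and 7 and 10 after correction with a median of -0.016. KLK3, which encodes prostate-specific antigen, was at 49.5 CPM in control and at 42.5, 45.6 and 44.0 CPM with vesicles. STEAP2 and ABCC4, both androgen-responsive membrane protein genes, had mean log2 ratios of 0.44 and 0.47, and 0.065 and 0.25 after correction, where STEAP2 no longer lay above control in EV-siYAP1. NR2F2, which encodes COUP-TFII, was at 55.8 CPM in control and at 50.5, 53.3 and 52.7 CPM with vesicles. Nuclear receptor and pioneer factor genes had 8 of 26 members higher and 10 lower, and 9 and 6 after correction. Among them NR1D2, which encodes the clock repressor REV-ERB beta, was at 15.7 CPM in control and at 25.8, 29.8 and 23.6 CPM with vesicles. PPARG, the adipogenic receptor gene, was at 4.04 CPM in control and at 5.99, 6.41 and 6.68 CPM with vesicles. The corrected means of NR1D2 and PPARG were 0.42 and 0.52.

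Stress lists were divided. The integrated stress response had 7 of 30 members higher in all 3 libraries and 10 lower, which became 11 higher and 4 lower after correction. SLC7A11, the cystine transporter gene, was at 11.6 CPM in control and at 20.8, 21.3 and 18.4 CPM with vesicles. CEBPG, a partner of ATF4, was at 41.4 CPM in control and at 57.3, 60.6 and 56.9 CPM with vesicles. The corrected means of SLC7A11 and CEBPG were 0.39 and 0.36. Endoplasmic reticulum chaperone genes had 5 of 22 members higher and 6 lower, and 4 and 5 after correction, and SEL1L and DNAJC3 had mean log2 ratios of 0.47 and 0.43, and 0.12 and 0.15 after correction. Heat shock and cytosolic chaperone genes had 8 of 17 members higher and 7 lower, and 6 and 5 after correction. HSP90AA1, the inducible HSP90, was at 254.3 CPM in control and at 371.7, 348.4 and 323.6 CPM with vesicles, and its corrected mean was 0.35. HSPA4 and HSPA4L had mean log2 ratios of 0.41 and 0.72, and 0.21 and 0.33 after correction. NF-kB response genes above the floor had 7 of 11 members lower and 0 higher with a median of -0.16, and -0.085 after correction with 5 lower and 1 higher. The list has members under the floor with larger differences, CXCL1, IL6 and CXCL8 at 0 in every vesicle library and ICAM1 at 48 counts in control and 5 to 7 with vesicles, so the 11 are not the whole list. CXCL2 had 14 counts in control and 0, 0 and 3 with vesicles. Immediate early genes had 6 of 20 members higher and 7 lower, and 7 and 4 after correction. Interferon response genes had 2 of 15 higher and 7 lower with a median of -0.059, and 6 and 3 after correction with a median of 0.041.

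Vesicle handling and degradation genes were mixed. Genes of vesicle biogenesis and uptake had 16 of 29 members lower in all 3 libraries and 7 higher, with a median of -0.06, and 11 lower and 5 higher after correction. CLTC, the clathrin heavy chain gene, was at 197.4 CPM in control and at 255.2, 281.1 and 261.4 CPM with vesicles. RAB27B, which encodes a GTPase of vesicle secretion, was at 3.69 CPM in control and at 5.61, 5.46 and 5.66 CPM with vesicles. Lysosome and autophagy genes had 14 of 30 members lower and 9 higher, which became 7 lower and 10 higher after correction. TBK1, a kinase of selective autophagy, was at 5.44 CPM in control and at 11.2, 9.84 and 7.08 CPM with vesicles. The receptor genes OPTN and NBR1 and the proton pump gene ATP6V1A had mean log2 ratios of 0.59, 0.45 and 0.40. The corrected means were 0.14 for CLTC, 0.22 for RAB27B, 0.47 for TBK1, 0.47 for OPTN, 0.30 for NBR1 and 0.14 for ATP6V1A. Wnt signalling genes had 5 of 18 members higher and 3 lower, and 4 and 4 after correction. Besides APC, the receptor genes FZD6 and LRP6 had mean log2 ratios of 0.71 and 0.44, and 0.43 and 0.11 after correction, where LRP6 was at -0.033 in EV-siYAP1. Epithelial-mesenchymal state genes had 5 of 17 higher and 5 lower, and 3 and 5 after correction. Genes of steroid conjugation and androgen synthesis had 2 of 7 higher and 3 lower with a median of 0.054, and 0 higher and 5 lower after correction with a median of -0.128.

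**Figure D5:**
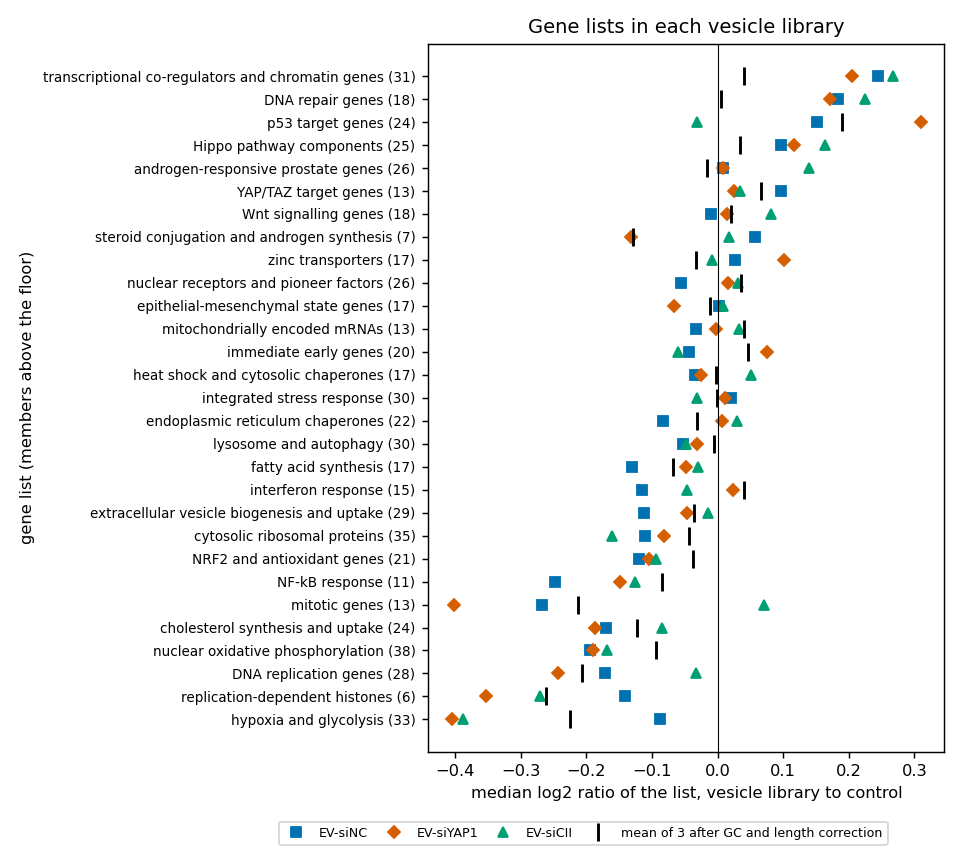
Median log2 ratio to control of each gene list with at least 5 members above the floor, in each vesicle library (coloured points) and as the mean of the 3 after the GC and length correction (black tick), with the number of members in brackets; metallothioneins and marker lists are not drawn. The chromatin and DNA repair lists sit above 0 in all 3 libraries with corrected ticks near 0 (0.041 and 0.005), while hypoxia and glycolysis genes (-0.30, corrected -0.23) and histones (-0.28, corrected -0.26) sit below 0 with and without the correction.

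Vesicles carry RNA of their donor cells, so transcripts found in EnzaR and nearly absent from LNCaP were counted in the recipient libraries. There were 5 such genes, with at least 20 CPM on average in EnzaR and under 0.5 CPM on average in LNCaP. They were LRRTM4, MAGEA4, TM4SF18-AS1, HOXA11 and LRRTM3. Together they had 30 counts in control and 10, 17 and 19 in EV-siNC, EV-siYAP1 and EV-siCII, beside a summed 168.4 CPM in EnzaR. The summed levels were 1.68 CPM in control (exact Poisson limits 1.13 to 2.40) and 0.53, 0.91 and 1.03 CPM with vesicles, so none of the vesicle libraries exceeded control. That limit averages over the vesicle libraries, so it can leave out a gene that was higher there, and MAGEA4, with 17 counts in control and 0, 8 and 8 with vesicles, passed it on the average. With the limit set on control alone, an alternative chosen after seeing the data, 7 genes gave 1.96 CPM in control (limits 1.36 to 2.72) and 2.94, 2.15 and 2.33 CPM with vesicles, and this choice favours genes that were low in control by chance. With a minimum of 10 CPM in EnzaR and the average limit, 13 genes gave 3.13 CPM in control and 2.89, 3.44 and 3.52 CPM with vesicles. The direction thus followed how the genes were chosen, and no statement on donor transcripts in the recipient libraries is made from it. In total RNA, taken-up donor RNA and RNA made by the recipient cannot be told apart for genes that both lines express. In bulk samples, fewer cells of a type and less RNA per cell cannot be told apart either.

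The labelled cell type was checked against marker genes. Of 12 luminal markers of LNCaP, 11 were above the floor, among them FOLH1, HOXB13 and TMPRSS2, with a summed level of 3908 CPM in control and 3563 to 3873 CPM with vesicles. KLK3 was at 42.5 to 49.5 CPM in LNCaP beside an average of 1251 CPM in EnzaR. The summed markers of basal-type prostate lines were at 361.5 CPM in control and 356.3 to 376.1 CPM with vesicles, with KRT5 and TP63 at 0 counts in all 4 libraries. Neuroendocrine markers summed to 175.7 CPM in control and 131.5 to 199.4 CPM with vesicles, most of it ENO2. Fibroblast markers summed to 133.0 CPM in control and 127.7 to 141.6 CPM with vesicles, with LUM, FAP and POSTN at 0. Immune markers summed to 1.58 CPM in control and 1.47 to 2.97 CPM with vesicles, with PTPRC and CD3E at 0, and endothelial markers to 12.9 CPM and 11.1 to 14.0 CPM. For these marker sums other than the luminal one, control lay inside the range of the vesicle libraries. The sums rest mostly on single genes (VIM, ENO2, COL1A1 and VWF), and less abundant markers differed: besides COL1A2 and DCN, CD44 had 8 counts in control and 2, 1 and 1 with vesicles. Their part in the results was not tested.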

How the data were processed

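Total RNA of 8 libraries had been sequenced, and the 4 LNCaP libraries were compared here, with 1 library per group and groups taken from the sample labels. The authors deposited 1 table of 57905 Ensembl genes with raw read counts and FPKM per library. Per the submitters' processing notes, which state no roles, the tools were HISAT2 2.0.1, HTSeq 0.6.1, DESeq2 and cutadapt 1.9.1, and the build was GRCh37 (hg19). Neither the annotation release nor the strand setting is stated there. The authors' FPKM equalled count over exonic length and library total for all 463240 values within 0.0051 and were otherwise left aside. The deposited counts entered unchanged, and 0 lines of the table lacked a gene. Symbols were matched for 51996 identifiers, which held 99.24% of counts.

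CPM were scaled by TMM over the 4 LNCaP libraries in edgeR 4.0.16 and, where EnzaR levels are given, over all 8. Log2 ratios used a prior count of 2, and the floor was a mean of 5 CPM. Intervals are exact binomial or Poisson limits at 95%. A control value of 3 counts corresponds to 0.17 CPM. GC content is that of the longest transcript with the same identifier in a GRCh38 annotation and was found for 98.6% of genes. The GC and length surface was fitted per vesicle library with mgcv 1.9.3 (a thin-plate term with 30 basis functions). Its centring on the library median was chosen after seeing the data. The calling rule was tested on simulated data. The simulation held no GC trend and no shift of the control library, so it cannot show how the rule acts on either.

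Named genes were a few set by name (YAP1, NR2F2 and KLK3 among them), then the 12 per direction with the largest smallest ratio over the 3 libraries, and up to 4 members per list at least 25% higher or 20% lower in each. Unnamed identifiers (5 lower) and Y-linked genes (1 higher) were passed over, and 3 genes that the rule names are not reported here. List members outside this rule are named where a count was 5 or fewer, and were chosen after their values were seen. The 36 lists held 867 entries, 858 matched to the table by symbol and 648 above the floor. An unmatched entry may still be in the table, for example as an identifier without a symbol. The members and lists were chosen with earlier results of these data known. Alternatives were other scalings (library totals, DESeq2 1.42.0 size factors, upper quartiles, TMM over 8 libraries), floors, prior counts, the GC and length correction and each vesicle library left out.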

Additional observations from a re-analysis of the deposited data

How the results depend on the processing

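Calls at 1.5-fold depended most on the settings: the 98 higher and 8 lower genes became 172 higher with library totals, 34 higher with upper quartiles, 312 and 43 at a floor of 1 CPM, 12 and 1 at 20 CPM, and 844 and 1504 with no floor. After the GC and length correction they were 14 and 15, or 12 and 20 when the ratios were centred on the surface. Leaving out a vesicle library gave 112 to 258 higher and 9 to 28 lower, since fewer libraries had to pass. Upper quartiles kept 34 of the 98 and the correction 12 of the 98 and 4 of the 8. At any size, higher genes numbered 1619 at 20 CPM, 6445 with no floor and 2268 with the surface centring, and lower genes 8280 with no floor. The share of same-side genes that were higher was 47.8%, 63.6% with library totals, 30.6% with upper quartiles, 33.9% at 20 CPM and 34.8% with the surface centring. At 1.5-fold it was 92.5%, 75.6% with upper quartiles, 48.3% after correction, 37.5% with the surface centring and 35.9% with no floor. Upper quartiles moved the median ratio of all genes from -0.015 to -0.117, and library totals moved it to 0.047, so ratios under those scalings are relative to these shifts.

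Some directions turned. YAP1 was at -0.042 after correction and -0.075 with the surface centring. Androgen-responsive genes had medians of -0.016 after correction and -0.049 with the surface centring, DNA repair genes -0.028 with the surface centring, and fibroblast markers 0.000 after correction and -0.098 to 0.024 with a vesicle library left out, the higher value without EV-siCII. Lists without a common side also changed sign after correction: steroid conjugation from 0.054 to -0.128, interferon response from -0.059 to 0.041, zinc transporters from 0.023 to -0.033 and basal-type markers from 0.052 to -0.036. With upper quartiles, androgen-responsive genes were at -0.039 and YAP/TAZ targets at -0.046, and with library totals fatty acid synthesis genes were at 0.005, lysosome genes at 0.038 and fibroblast markers at 0.023. These lists moved with the median of all genes under those scalings, so relative to it they did not turn. The summed donor transcripts differed from control by -0.855 CPM on average, by 0.152 CPM with the cut of 10 CPM in EnzaR and by -1.71 CPM with a cut of 1 CPM in LNCaP, and by 0.517 CPM with the LNCaP cut in control alone, which was chosen after seeing the data. The cause of the turns after correction was not tested. Over all alternatives, 763 values of named genes were within the spread of the vesicle libraries, 150 moved by more and 2 turned. No paired analysis was possible because each LNCaP group holds 1 library and no test was made. The control library could not be left out.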

Other observations

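Among abundant genes, with a mean of at least 50 CPM, 70 were at least 25% higher in all 3 vesicle libraries and 25 were at least 20% lower. Identifiers without a symbol and Y-linked genes were left out of these counts. The share of all abundant genes was not computed, so the counts cannot be read against a background. The limit and the names were chosen after the values were seen. KIF5B, the kinesin-1 heavy chain gene, was at 71.1 CPM in control and at 114.2, 145.7 and 105.2 CPM in EV-siNC, EV-siYAP1 and EV-siCII. ADAM9, a membrane metalloprotease gene, was at 34.6 CPM in control and at 57.9, 66.7 and 53.4 CPM with vesicles. DSG2, a desmosomal cadherin gene, was at 55.9 CPM in control and at 80.8, 91.5 and 86.0 CPM with vesicles. After the GC and length correction these 3 genes had mean log2 ratios of 0.46, 0.46 and 0.39. The neprilysin gene MME and the adhesion gene NCAM2 went from mean log2 ratios of 0.57 and 0.56 to 0.21 and 0.16. On the lower side, CSRP1, which encodes a zinc-binding LIM protein, was at 262.7 CPM in control and at 148.3, 114.9 and 203.0 CPM with vesicles, and its mean log2 ratio was -0.80, or -0.83 after correction. TIMM8B, a mitochondrial import chaperone gene, was at 105.0 CPM in control and at 82.2, 63.3 and 69.8 CPM, and ERH at 180.3 CPM in control and at 136.9, 126.3 and 135.8 CPM.

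The correction also placed genes past 1.5-fold that were not past it before. PSMA6, a proteasome subunit gene, SRSF3, a splicing factor gene, and WEE1, the kinase that restrains mitotic entry, had uncorrected mean log2 ratios of -0.49, -0.52 and -0.43 and corrected ones of -0.82, -0.81 and -0.79. DBI, ATP5F1E and SEC61G went from -0.48, -0.41 and -0.40 to -0.71, -0.71 and -0.64. These 6 genes have a GC content of 36.1% to 39.3% by their longest transcript. They were lower in all 3 vesicle libraries although genes of that content were mostly higher. The longest transcript need not be the one expressed, so their corrected values are uncertain. An unnamed identifier on an unplaced scaffold, ENSG00000266658, was at 569.1 CPM in control and at 360.6, 335.3 and 405.0 CPM with vesicles. It was at 335.8 CPM on average in EnzaR. ENSG00000266658 lies on the same scaffold as ENSG00000272060, and their exonic lengths are 5070 and 1869 bases. What kind of RNA these identifiers represent was not established.

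Genes of LNCaP that EnzaR nearly lacked, with at least 20 CPM in LNCaP and under 0.5 CPM in EnzaR, were 21 in number. Of these, 8 were higher and 4 were lower in all 3 vesicle libraries, beside 33.3% and 36.4% of all genes. Their median log2 ratio was 0.034, beside -0.015 over all genes.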
